A study of Homo sapiens with 2 samples.

Results

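The translation initiation and elongation factors are the proteins that bring ribosomes to mRNA, choose the start codon, move the ribosome along and release the finished chain. They were chosen by gene symbol alone, as the protein-coding genes whose symbols begin with EIF1, EIF2A, EIF2B, EIF2D, EIF3, EIF4, EIF5, EIF6, EEF1A, EEF1B, EEF1D, EEF1G, EEF2, ETF1 or GSPT. The eIF2 subunits, the eIF2 kinases, EEF1E1, EIF1AY and pseudogenes were left out by the same rule. It took 63 of the 28117 genes in the tables, including the kinase and methyltransferases whose symbols carry the name of an elongation factor. Of the 63, 58 had a CPM (count scaled to library size) that averaged at least 1 over both libraries and were used for counts and medians. The other 5 were EIF4E1B, EIF3CL, EIF4EBP3, GSPT2 and the readthrough gene EEF1AKMT4-ECE2, none with more than 5 counts in a library.

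Poly-A RNA was sequenced from HEK293T cells, a human embryonic kidney line that carries the SV40 large T antigen. One library came from cells given a non-targeting control RNA (GL2) and the other from cells given an RNA with the sequence of tRF-3004b, a fragment of the 3′ end of a tRNA. Both RNAs were synthetic, carried a 5′ phosphate, were introduced by reverse transfection with Lipofectamine RNAiMAX at a total of 500 nM, and were left for 120 h. With 1 library per group there was no spread between replicates, so every difference is between these libraries, no test was made, and the 95% intervals cover counting error only. The sequences of both RNAs are shown because they are the only stated difference between the libraries, and capitals mark bases 2 to 8, the stretch that pairs with targets in small RNAs bound by Argonaute.
Control RNA: cGUACGCGgaauacuucgauu
tRF-3004b: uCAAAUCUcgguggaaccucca

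In cap-dependent initiation, eIF4E binds the mRNA cap, the scaffold eIF4G joins it to the helicase eIF4A and to eIF3 on the small ribosomal subunit, and eIF1, eIF1A and eIF5 control the choice of the start codon. eIF2B recharges eIF2 with GTP, and eIF5B joins the large subunit. eEF1A then brings aminoacyl-tRNA to the ribosome and eEF2 moves it along, and eRF1 (ETF1) with eRF3 (GSPT1 or GSPT2) ends translation. Many of these mRNAs begin with a C followed by a run of pyrimidines, the 5′ TOP element, through which mTOR signalling controls their translation.

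Depth differed 10.8-fold, with 19609933 estimated counts for the control and 1809193 for tRF-3004b, so the smaller library sets the precision. Over the 13750 measured genes (mean CPM 1 or more) the median log2 ratio of CPM, tRF-3004b over control, was -0.11, and with gene TPM (abundance per transcript length) it was -0.38. The ratio also moved with length, from a median of 0.65 in the shortest of 10 length classes (genes with mean CPM 10 or more) to -0.47 in the longest. All 6 HEK293T-like markers were detected, with a summed CPM of 1611 in the control and 1101 in the tRF-3004b library. VIM alone held 1447 and 979.5 of these sums, and PAX2 had 19 and 2 counts. Of the 6, 3 had a log2 ratio above 0 and 3 below, so the sums mostly follow VIM. Marker genes of other cell types were low but unequal. Summed CPM was 36.1 and 116 for 7 of 7 fibroblast genes, of which FBLN1 held 23.7 and 20.8. Of these 7, 5 were at least 2-fold higher with tRF-3004b, with a median log2 ratio of 3.21. Sums were 13.7 and 40.0 for 6 epithelial genes (KRT5 at 0 in both) and 3.31 and 30.4 for 6 blood genes. At least 2-fold higher were 2 epithelial and 5 blood genes. The 6 muscle and neuron genes summed to 24.3 and 9.57, of which SYT1 held 22.3 and 5.63. DES went the other way, with 2 and 7 counts. MYH7 was at 0 in both, and ACTA1, SNAP25 and RBFOX3 were at 0 in the tRF-3004b library. The part of these markers in the results below was not tested. With the control thinned to the depth of the other library, the median log2 ratio of the factors was 0.12, against 0.15 at full depth.

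As a class the factors had nearly the same share of counts in both libraries and a lower summed TPM with tRF-3004b, while single genes differed in both directions. Their share of all named counts was 2.62% in the control and 2.58% with tRF-3004b, and their summed TPM was 22226 and 19172. Of the 58 measured factors, 34 had a log2 ratio above 0, against 44.5% of all measured genes, and 24 a ratio below 0, against 55.5%. EIF2A, at 247 CPM in both libraries, is among the 34 with a log2 ratio of 0.00 to the precision given here. The median of the 58 was 0.15 on the log2 CPM scale and -0.19 on the log2 scale of TPM with 1 added, on which 24 factors were above 0 and 34 below. The medians of all measured genes on these scales were -0.11 and -0.38, so the factors' median was higher than that of all genes on both.

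At least 2-fold higher CPM in the tRF-3004b library was found for 6 factors, EIF5AL1, EIF5B, EEF1AKMT1, EIF4E2, EIF6 and EIF3E, against 12.3% of all measured genes. At least 2-fold lower CPM was found for 2, EEF2K and EIF4E3, against 14.3%. The shares of factors were 10.3% and 3.45%. The background depends on low counts: among genes whose CPM averaged 5 or more, 6.89% were 2-fold higher and 10.5% lower, against 10.5% and 3.51% of the 57 factors there, so on that base the share of factors 2-fold higher lay above the background and not below it. The nearest outside the threshold were EEF2KMT, with a log2 ratio of 0.996, and EIF1, with -0.96. Counting intervals lay wholly above 0 for 27 factors, against 23.3% of genes, and wholly below 0 for 19, against 28.6%, and held 0 for 12. Intervals are narrower at higher counts, so these numbers follow abundance as well as size.

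**Figure D1:**
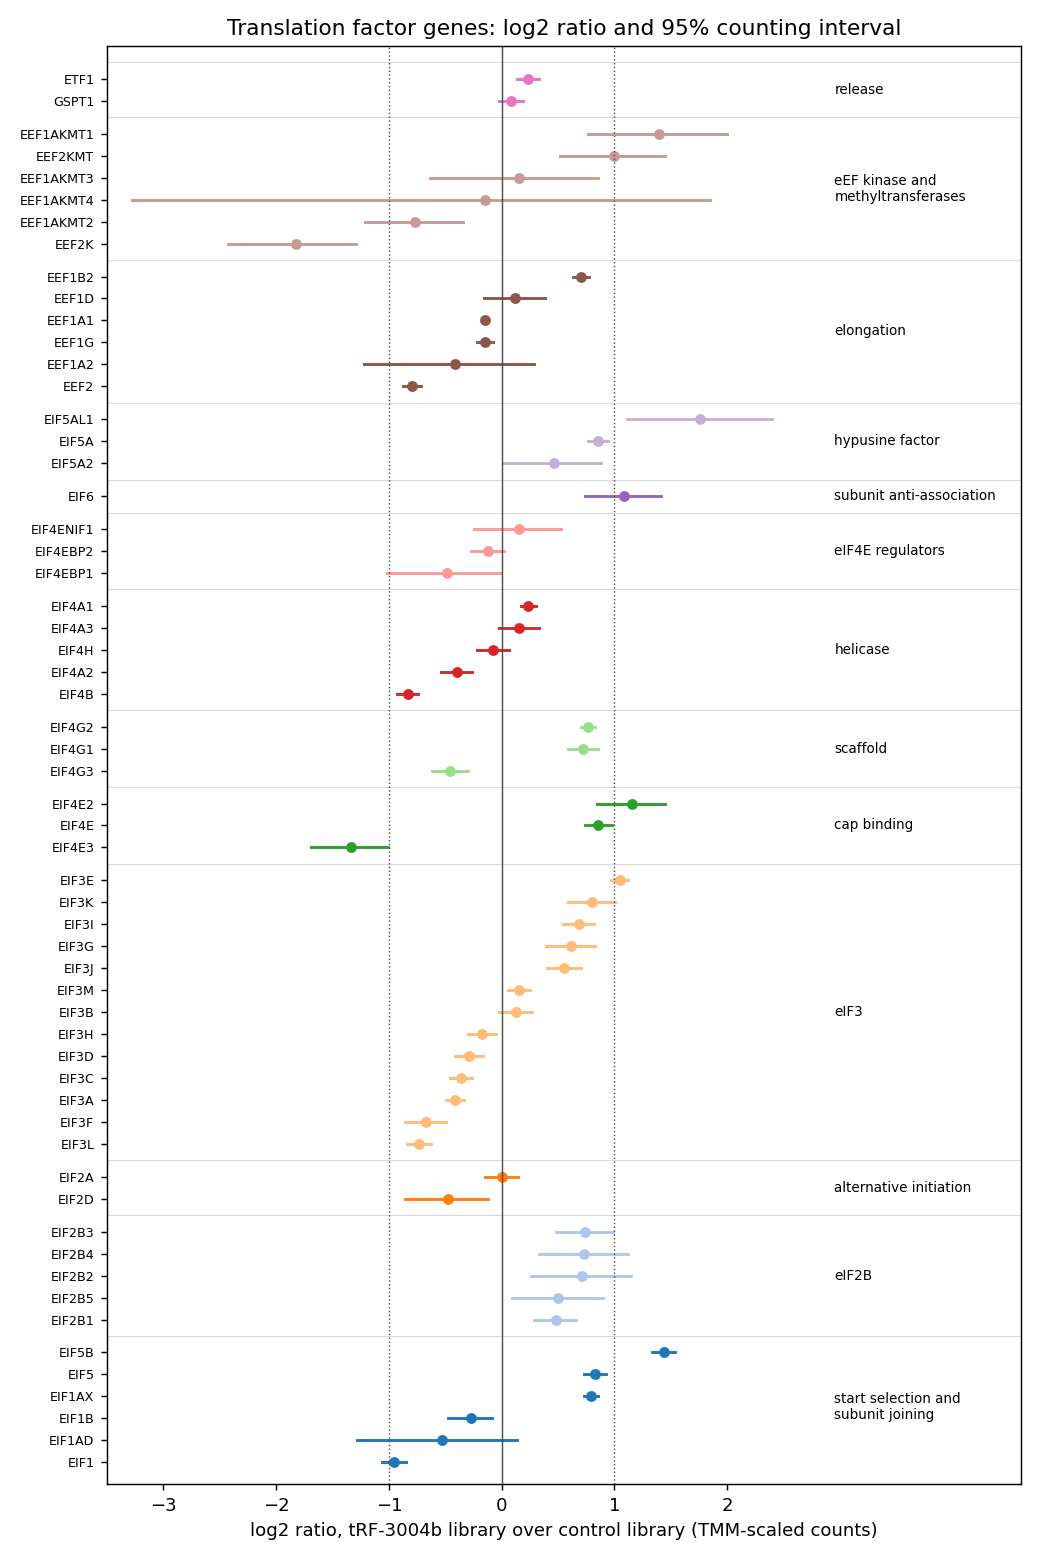
Log2 ratio of CPM, tRF-3004b over control, for each of the 58 measured factors, sorted within role groups, with 95% counting intervals. The 5 eIF2B subunits all lie above 0, whereas eIF3 subunits lie on both sides, from -0.73 for EIF3L to 1.05 for EIF3E.

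The bases at the transcript start are shown for the factors with a pyrimidine start, since the 5′ TOP element is the best known feature that many of these mRNAs share. RefSeq start windows on GRCh38.p14 were matched for 51 of the 63 factors, of which 47 were measured. The 12 without a window were EEF1A2, EEF1AKMT1, EEF1AKMT3, EEF1D, EEF2KMT, EIF3A, EIF3CL, EIF3E, EIF3G, EIF3H, EIF3L and EIF4EBP1. The comparisons by start leave these out, and with them the highest and lowest eIF3 subunits, EIF3E (1.05) and EIF3L (-0.73). A start of C followed by at least 4 more C or T bases was found, read on the gene's strand, in 11 of the 47 (23.4%), in 7.26% of 10906 measured genes with a window, and in 4.07% of all 35116 windows. Each sequence gives 15 bases before and 15 bases from the annotated start, and capitals mark the pyrimidine run that begins at the start, as far as the 15 bases reach (the run of EEF1B2 is 16 bases).
EEF1A1, chr6:73521018-73521047, minus strand: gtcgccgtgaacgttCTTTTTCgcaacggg
EEF2, chr19:3985449-3985478, minus strand: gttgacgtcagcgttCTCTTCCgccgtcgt
EIF4B, chr12:53006441-53006470, plus strand: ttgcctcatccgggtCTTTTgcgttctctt
EIF3F, chr11:7987322-7987351, plus strand: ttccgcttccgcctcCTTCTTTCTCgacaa
EIF2D, chr1:206612451-206612480, minus strand: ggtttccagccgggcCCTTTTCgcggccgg
EIF4A2, chr3:186783562-186783591, plus strand: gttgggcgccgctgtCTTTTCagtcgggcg
EIF3D, chr22:36529152-36529181, minus strand: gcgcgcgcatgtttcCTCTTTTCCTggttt
EIF2A, chr3:150546772-150546801, plus strand: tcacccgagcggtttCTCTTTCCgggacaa
EIF3M, chr11:32583816-32583845, plus strand: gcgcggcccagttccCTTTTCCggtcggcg
EEF1B2, chr2:206159880-206159909, plus strand: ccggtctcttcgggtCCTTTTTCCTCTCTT
EIF3K, chr19:38619173-38619202, plus strand: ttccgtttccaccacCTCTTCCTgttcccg
Of these 11, 7 had lower CPM in the tRF-3004b library, from EIF4B at -0.83 to EEF1A1 at -0.15, and 4 had a ratio at or above 0, of which EEF1B2 and EIF3K lay at 0.70 and 0.80. The share lower was 63.6%, near the 59.1% of all measured genes with such a start. EEF1B2 has the run in 1 of its 2 windows. The median log2 ratio of CPM of the 11 was -0.29, and that of the 36 measured factors without such a start was 0.35, with 12 lower (33.3%, against 55.1% of all measured genes without the start) and 24 higher. On the TPM scale the medians were -0.63 and 0.01, and after subtracting the median of all genes of like length, -0.26 and 0.40. Over all measured genes with a window the medians with and without the start were -0.16 and -0.10 on the CPM scale. Transcripts of the 2 sets of factors had median lengths of 3158 and 2931 bases.
For contrast, these are the starts of 3 factors outside that set with large differences.
EIF5B, chr2:99337374-99337403, plus strand: gcgcactgagaactcacaccatatgtgtcc
EEF2K, chr16:22206263-22206292, plus strand: tgcccgcccgcttctgctcaacctagacca
EIF1, chr17:41688870-41688899, plus strand: aggcaccgcccctctgccccagtcactgag

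**Figure D2:**
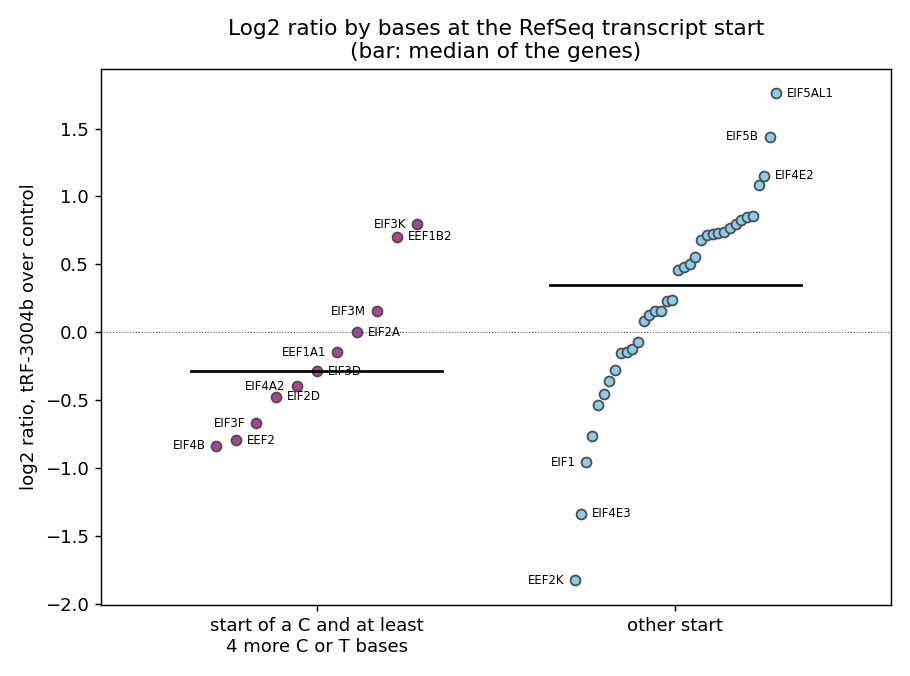
Log2 ratio of CPM, tRF-3004b over control, for the 47 measured factors with a RefSeq start window, split by the bases at the start, with a bar at each median. The 11 with a pyrimidine start have a median of -0.29 and the other 36 a median of 0.35, and the ranges overlap.

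The windows, 250 bases before to 50 after each start, were also searched on both strands for CACGTG, the E-box of MYC and related factors, and for TGATGNAA, the core of the element bound by ATF4. CACGTG was in 12 of 47 measured factors (25.5%), in 12.7% of measured genes and in 7.26% of all windows, and the factors with and without it had medians of 0.04 and 0.15. TGATGNAA was in 1 factor, EIF4E3 (2.13%), against 2.70% of measured genes and 3.62% of windows. These are matches of letters only.

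Among the elongation factors, levels per length were headed by EEF1A1, and eEF2 was the member furthest below the control. EEF1A1 encodes the main form of eEF1A, spans chr6:73515750-73521032 and was the most abundant factor in both libraries. It had 175370 control and 14112 tRF-3004b counts, or 8794 and 7944 CPM and 5774 and 4115 TPM. Its log2 ratio of CPM was -0.15 (interval -0.17 to -0.12), and it made up 26.0% and 21.5% of the summed TPM of all factors. EEF2 encodes the translocase, lies at chr19:3976056-3985463 and had 26934 and 1381 counts, or 1351 and 777 CPM and 991 and 450 TPM. CPM of EEF2 was 1.74-fold lower in the tRF-3004b library (log2 ratio -0.80, -0.88 to -0.72). The ratio of EEF1A1 to EEF2 TPM was therefore 5.83 in the control and 9.15 in the tRF-3004b library. EEF1A2, the eEF1A form of muscle and neurons, had 255 and 17 counts, 12.8 and 9.57 CPM and 17.3 and 10.2 TPM, with an interval that held 0 (-0.42, -1.22 to 0.29). EEF1A1 exceeded it 333-fold and 402-fold in TPM.

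The subunits of eEF1B, which exchange the nucleotide on eEF1A, differed from each other. EEF1B2, the catalytic beta subunit, was the second factor in TPM in both libraries, with 13808 and 2003 counts, 692 and 1128 CPM and 2284 and 2945 TPM, and was higher with tRF-3004b (0.70, 0.64 to 0.77). EEF1G, the gamma subunit, had 990 and 894 CPM and 1677 and 1195 TPM (-0.15, -0.22 to -0.07). EEF1D, the delta subunit, had 64.2 and 69.8 CPM with an interval that held 0 (0.12, -0.16 to 0.39), and its ratio was below 0 on the TPM scale. EEF1B2 transcripts are short, at 808 bases, where the median of all genes was 0.65, so EEF1B2 lay close to genes of like length. Of the 6 elongation factors, 5 were below the median of their length class.

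The enzymes that act on elongation factors held the factor with the lowest measured ratio. EEF2K, the kinase that phosphorylates and inhibits eEF2, lies at chr16:22206278-22288738. It had 1117 and 28 counts, or 56.0 and 15.8 CPM and 17.1 and 3.80 TPM, and was 3.55-fold lower with tRF-3004b (-1.83, -2.43 to -1.29). Genes of like length had a median of -0.41. EEF1AKMT2, a lysine methyltransferase of eEF1A, had 916 and 48 counts, 45.9 and 27.0 CPM and 30.4 and 13.9 TPM (-0.76, -1.22 to -0.35). EEF1AKMT1, which methylates another lysine of eEF1A, went the other way, with 123 and 29 counts, 6.17 and 16.3 CPM and 18.0 and 40.2 TPM (1.40, 0.77 to 2.0). A non-coding transcript held 49.1% and 56.0% of the TPM of EEF1AKMT1, and with coding transcripts only the ratio was 1.14. EEF2KMT, which methylates eEF2, had 264 and 47 counts, 13.2 and 26.5 CPM and 13.3 and 20.8 TPM (1.00, 0.52 to 1.45). EEF2KMT shares at least 10% of its 31-base words with each of 6 FAM86 genes and fewer with other FAM86 genes, and summed with those 6, at 1104 and 116 counts, the interval held 0 (0.24, -0.05 to 0.52). EEF1AKMT3 had 9.13 and 10.1 CPM and EEF1AKMT4 had 25 and 2 counts, and both intervals held 0.

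The factors of start codon selection split by gene rather than moving together. EIF1, which keeps the scanning ribosome open until it meets a good start codon, lies at chr17:41688885-41692668 and had the lowest ratio of the 6, with 15989 and 734 counts, 802 and 413 CPM and 807 and 329 TPM (-0.96, -1.07 to -0.85). EIF1B, a close relative of EIF1, had 157 and 129 CPM and 409 and 267 TPM (-0.28, -0.48 to -0.08). EIF1AD, a protein with an eIF1A-like domain, had 309 and 19 counts, 15.5 and 10.7 CPM and 13.2 and 7.10 TPM, and its interval held 0 (-0.53, -1.29 to 0.13). On the other side was EIF1AX, the X-linked gene of eIF1A, with 15607 and 2413 counts, 783 and 1358 CPM and 405 and 555 TPM (0.80, 0.73 to 0.86). EIF5, which makes eIF2 hydrolyse GTP at the start codon, had 5818 and 920 counts, 292 and 518 CPM and 116 and 162 TPM (0.83, 0.73 to 0.93). EIF1 thus exceeded EIF1AX in TPM in the control and was below it in the tRF-3004b library.

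EIF5B, the GTPase that joins the large ribosomal subunit, had the highest ratio of the factors with over 100 counts in the tRF-3004b library. It lies at chr2:99337389-99401326 and had 3992 and 964 counts, 200 and 543 CPM and 79.1 and 169 TPM. CPM of EIF5B was 2.71-fold higher with tRF-3004b (1.44, 1.34 to 1.54), and the difference was 1.09 on the log2 TPM scale. Its transcript is 5741 bases long, and genes of like length had a median of -0.33, so EIF5B stood against the direction of its length class.

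All 5 subunits of eIF2B, the exchange factor whose activity the integrated stress response limits, had higher CPM and higher TPM in the tRF-3004b library. Log2 ratios of CPM ran from 0.48 to 0.74 with a median of 0.71, and none reached 2-fold. EIF2B1, the alpha subunit and the most abundant, had 2150 and 267 counts, 108 and 150 CPM and 106 and 116 TPM (0.48, 0.29 to 0.66). EIF2B2, the beta subunit, had 342 and 50 counts, 17.1 and 28.1 CPM and 9.12 and 11.8 TPM (0.71, 0.26 to 1.15). EIF2B3, the gamma subunit, had 1010 and 150 counts, 50.6 and 84.4 CPM and 70.6 and 96.7 TPM (0.74, 0.48 to 0.99). Beta and gamma thus differed in level per length more than in ratio. EIF2B4, the delta subunit, had 425 and 63 counts, 21.3 and 35.5 CPM and 29.5 and 38.6 TPM (0.73, 0.33 to 1.12). EIF2B5, the catalytic epsilon subunit, had 467 and 59 counts, 23.4 and 33.2 CPM and 21.4 and 24.0 TPM (0.50, 0.09 to 0.90). All 5 intervals lay above 0, against 23.3% of all measured genes, of which 44.5% had a ratio above 0. All 5 subunits lay above the median of their length class. Log2 ratios of TPM with 1 added ran from 0.14 to 0.45. The smallest counts, 50 to 63 in the tRF-3004b library, leave intervals about as wide as the ratios themselves.

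EIF2A and EIF2D take part in initiation outside the eIF2 pathway, and the first did not differ at this depth. EIF2A had 4928 and 439 counts, 247 and 247 CPM and 146 and 116 TPM (0.00, -0.14 to 0.14). EIF2D had 1046 and 67 counts, 52.5 and 37.7 CPM and 62.0 and 35.2 TPM (-0.48, -0.85 to -0.12).

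**Figure D3:**
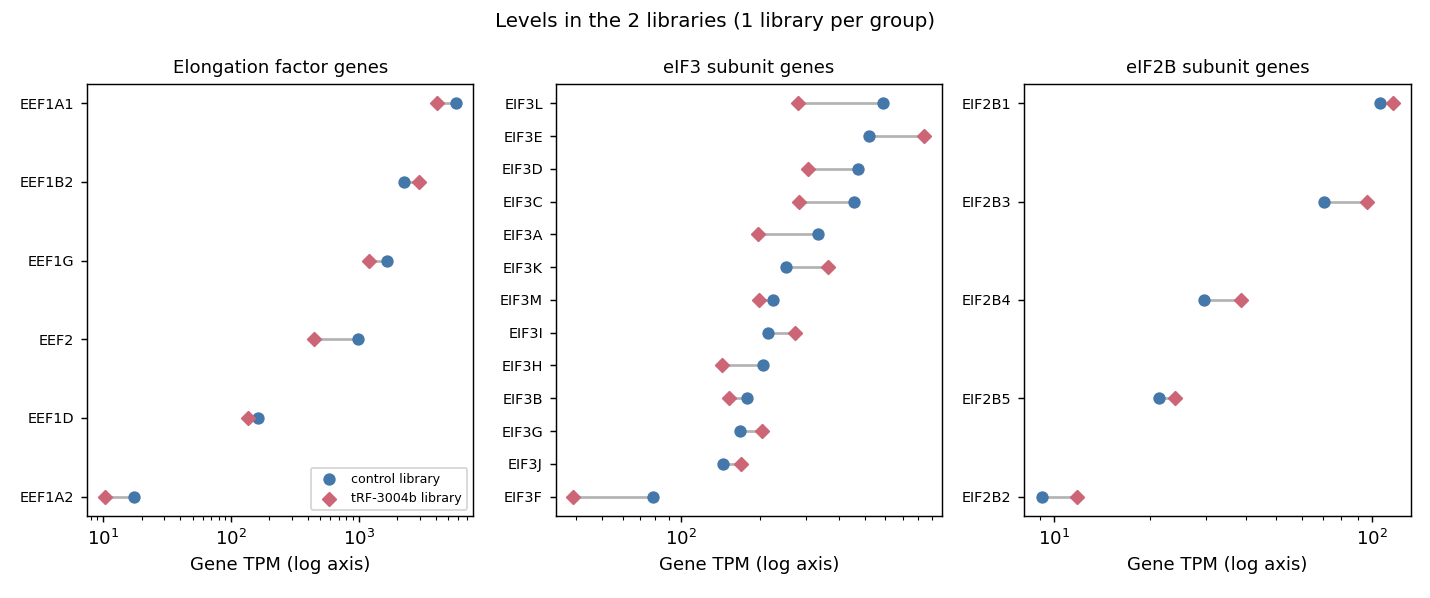
TPM (x axis, log scale) of the measured elongation factor, eIF3 subunit and eIF2B subunit genes, in separate panels. Circles give the control library and diamonds the tRF-3004b library, joined by a line for each gene. EEF1A1 is the most abundant elongation factor in both libraries, and all 5 eIF2B subunits have higher TPM in the tRF-3004b library.

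The eIF3 complex, the scaffold of the 43S ribosome, had nearly equal summed CPM in both libraries and a lower summed TPM with tRF-3004b, while its subunits differed in both directions. Summed over the 14 genes, counts were 96671 and 8561, with a log2 ratio of CPM of -0.01 (-0.04 to 0.02), and summed TPM was 3834 and 3448. Of the 13 measured, 7 had a ratio above 0 and 6 below, against 44.5% and 55.5% of all measured genes. Intervals lay above 0 for 6 and below for 6, against 23.3% and 28.6%. With TPM 5 of the 13 were higher and 8 lower. The median of the 13 on the log2 scale of TPM with 1 added was -0.23, above the -0.38 of all measured genes. EIF3E, the INT6 subunit, was the furthest above, with 8797 and 1618 counts, 441 and 911 CPM and 519 and 845 TPM (1.05, 0.97 to 1.12). EIF3L was the furthest below, with 13408 and 719 counts, 672 and 405 CPM and 589 and 280 TPM (-0.73, -0.84 to -0.62). Both proteins carry a PCI domain, a fold that builds the body of the complex. EIF3L was the most abundant eIF3 subunit in TPM in the control whereas EIF3E was in the tRF-3004b library. EIF3F, an MPN-domain subunit, had 4794 and 268 counts, 240 and 151 CPM and 78.5 and 38.9 TPM (-0.67, -0.86 to -0.49). EIF3A and EIF3C, the large subunits that hold the complex together, were also lower in CPM, at -0.41 and -0.36, as were EIF3D (-0.29), which can bind caps itself, and EIF3H (-0.17). EIF3C shares 96.9% of its 31-base words with EIF3CL (5 and 2 counts), and their sum had the same ratio as EIF3C.

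The remaining eIF3 subunits had ratios above 0. EIF3K, the smallest subunit, had 71.0 and 123 CPM and 252 and 364 TPM (0.80, 0.58 to 1.00). EIF3I and EIF3G, which form a module with EIF3B, had ratios of 0.68 and 0.61, and EIF3B itself 0.13 (-0.02 to 0.27). EIF3J, a loosely bound subunit, had 0.55 and EIF3M 0.15. EIF3G and EIF3K are short, in the class with a median of 0.65, and EIF3G lay below that median while EIF3K lay above it. The most abundant eIF3 subunit exceeded the least abundant 7.5-fold in TPM in the control and 21.7-fold in the tRF-3004b library. The least abundant was EIF3F in both, and its TPM rests on a RefSeq transcript of 6920 bases. The paired GENCODE transcript has 1254 bases. In CPM EIF3F (240 and 151) exceeded EIF3K and EIF3G in both libraries, so the 2 spans depend on that annotated length.

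Cap recognition gave ratios in both directions within 1 family. EIF4E, the major cap-binding protein, lies at chr4:98879276-98929133 and had 4255 and 687 counts, 213 and 387 CPM and 46.5 and 65.7 TPM (0.86, 0.74 to 0.97). Its transcripts average 10369 bases, and genes of that length had a median of -0.47. The leading RefSeq transcript has 10219 bases and its GENCODE pair 1097, so the TPM and length class of EIF4E rest on the RefSeq length. EIF4E2 (4EHP), a relative that binds the cap without eIF4G and represses translation, had 555 and 110 counts, 27.8 and 61.9 CPM and 50.6 and 101 TPM (1.15, 0.85 to 1.45). EIF4E3 lies at chr3:71659363-71754773 and had 2126 and 75 counts, 107 and 42.2 CPM and 38.1 and 11.9 TPM. It was 2.52-fold lower with tRF-3004b (-1.34, -1.69 to -1.0). EIF4E2 exceeded EIF4E3 in TPM in both libraries, and by more in the tRF-3004b library. EIF4E1B, a germline form, had 3 and 0 counts, and no fold is given.

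The mTOR-controlled repressors of eIF4E had ratios below 0, with 1 of 2 intervals reaching past it. EIF4EBP1, which mTOR phosphorylates to free eIF4E, had 567 and 36 counts, 28.4 and 20.3 CPM and 91.3 and 51.5 TPM (-0.49, -1.02 to -0.002). At 827 bases it belongs to the length class with a median of 0.65. EIF4EBP2 had 5321 and 435 counts, 267 and 245 CPM and 80.4 and 58.2 TPM, with an interval that held 0 (-0.12, -0.27 to 0.02). EIF4ENIF1, which carries eIF4E into the nucleus and represses it in the cytoplasm, had 31.9 and 35.5 CPM and an interval that held 0. The TPM of EIF4E over the sum of EIF4EBP1 and EIF4EBP2 was 0.271 in the control and 0.599 in the tRF-3004b library. Both values rest on the RefSeq length of EIF4E. EIF4EBP3 had 0 counts in both, and its sequence is shared with the readthrough gene ANKHD1-EIF4EBP3, with 318 and 12 counts.

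The eIF4G scaffolds divided between the family members. EIF4G1, the main scaffold, had 3676 and 541 counts, 184 and 305 CPM and 81.9 and 108 TPM (0.72, 0.59 to 0.85). EIF4G2 (DAP5), which lacks the eIF4E site and was the most abundant in TPM, had 16499 and 2502 counts, 827 and 1408 CPM and 501 and 673 TPM (0.77, 0.71 to 0.83). EIF4G3 had 5136 and 334 counts, 258 and 188 CPM and 97.2 and 54.6 TPM (-0.45, -0.62 to -0.29). EIF4G3 thus exceeded EIF4G1 in TPM in the control only, and lay close to the median of its length class, -0.41.

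Of the helicase group, the cofactor EIF4B was lowest, and the paralogues EIF4A1 and EIF4A2 differed in direction in CPM but not in TPM. EIF4A1, the main helicase of the cap complex, had 21113 and 2217 counts, 1059 and 1248 CPM and 1447 and 1347 TPM. Its log2 ratio was 0.24 (0.17 to 0.30) in CPM and -0.10 in TPM, so its direction depends on the scale. EIF4A2, its paralogue, had 6910 and 468 counts, 347 and 263 CPM and 439 and 264 TPM (-0.40, -0.53 to -0.26), and the TPM ratio of EIF4A1 to EIF4A2 was 3.30 and 5.11. EIF4B, which stimulates eIF4A, lies at chr12:53006456-53042215 and had 21138 and 1056 counts, 1060 and 594 CPM and 631 and 280 TPM (-0.83, -0.92 to -0.75). EIF4H, a related cofactor, had 270 and 256 CPM, and EIF4A3, of the exon junction complex, 145 and 161, and both intervals held 0. With TPM all 5 genes of the group were lower in the tRF-3004b library. Their median on the log2 scale of TPM with 1 added was -0.41, near the -0.38 of all measured genes.

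eIF5A, which carries the amino acid hypusine and helps ribosomes through difficult peptide bonds, had higher CPM and TPM with tRF-3004b from all 3 of its genes. Over all measured genes, 44.5% had a log2 ratio of CPM above 0. EIF5A had 7352 and 1182 counts, 369 and 665 CPM and 725 and 1034 TPM (0.85, 0.76 to 0.94). It is short, and its ratio less the median of its length class was 0.20. EIF5A2, its paralogue, had 21.3 and 29.3 CPM and 8.73 and 9.55 TPM (0.46, 0.02 to 0.88). EIF5AL1, a nearly identical copy, had 92 and 28 counts, 4.61 and 15.8 CPM and 2.74 and 7.51 TPM (1.76, 1.11 to 2.40). Of the 31-base words of EIF5A, 42.4% occur in EIF5AL1, so the counts of the pair are split by estimation, and their sum had a ratio of 0.87 (0.78 to 0.96). EIF6, which keeps free large subunits from joining small ones, lies at chr20:35278906-35284772 and had 461 and 87 counts, 23.1 and 49.0 CPM and 59.4 and 93.8 TPM (1.08, 0.74 to 1.42). It is short, and its ratio less the median of its length class was 0.43.

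The release factors were close to equal. ETF1 (eRF1), which reads stop codons, had 9034 and 946 counts, 453 and 533 CPM and 286 and 266 TPM (0.23, 0.14 to 0.33), and its direction was opposite with TPM. GSPT1, the GTPase eRF3a, had 8111 and 767 counts, 407 and 432 CPM and 129 and 108 TPM, with an interval that held 0 (0.09, -0.02 to 0.19). GSPT2 had 0 counts in both libraries, which allows up to 3 counts in each.

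**Figure D4:**
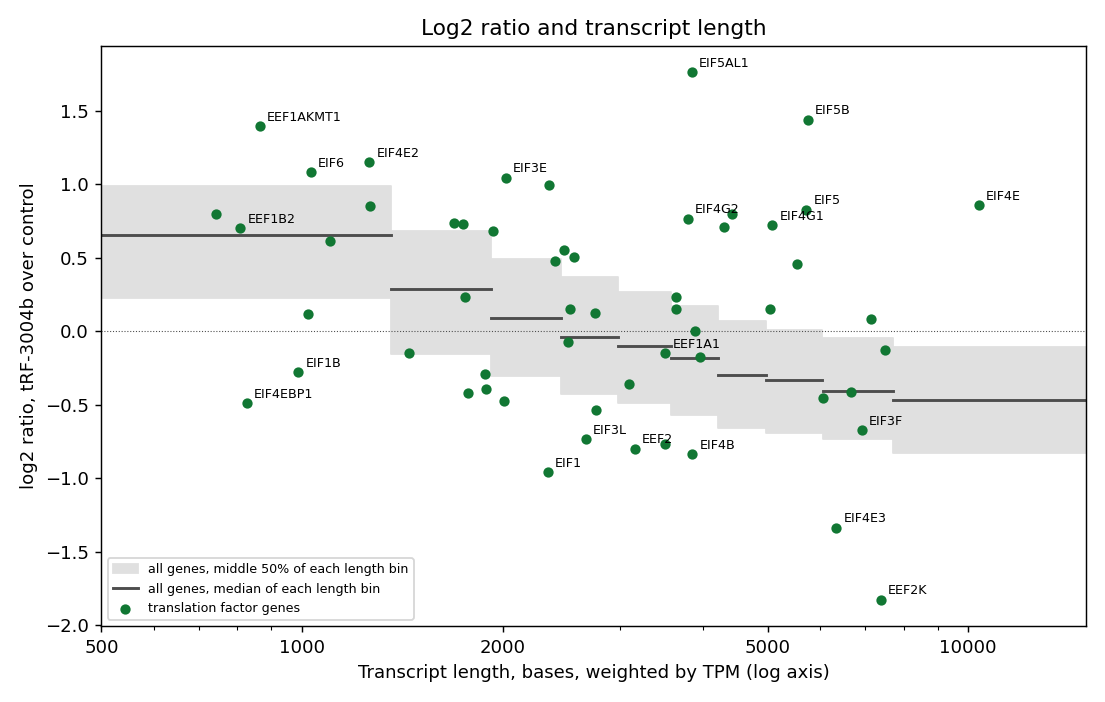
Log2 ratio of CPM, tRF-3004b over control, of the factors (points) against transcript length in bases (log axis), with the median of all genes in each of 10 length classes (lines) and their interquartile range (grey bands); the outer classes run past the axis ends. EIF5B and EIF4E lie above the line at long lengths, and EIF4EBP1 and EIF1 lie below it at shorter ones. EIF4E is placed by its RefSeq length, and its GENCODE pair is far shorter.

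Relative to genes of like length, 33 factors lay above and 25 below. The median of the factors was 0.17, against -0.015 over all measured genes after the same subtraction. Taking the class median off brought EIF4E (1.33), EIF5 (1.16), EIF1AX (1.09), EIF4G1 (1.06) and EIF2B2 (1.01) past 2-fold. The value of EIF4E rests on its RefSeq length of 10369 bases, whereas its GENCODE pair has 1097. The subtraction brought the short EIF6 (0.43), EIF4E2 (0.50) and EEF1AKMT1 (0.74) below 2-fold, and EIF3E to 0.95. EEF2K stayed past 2-fold and EIF4E3 came to -0.93, while EIF4EBP1 (-1.14) and EIF1 (-1.05) joined EEF2K.

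Most factors kept the same leading transcript. Of the 34 factors with at least 2 RefSeq transcripts, 28 had at least 50 counts in the tRF-3004b library, and 25 of the 28 had the same transcript first in TPM. The exceptions were EEF1D, EIF2B4 and EIF3K, and a transcript share moved by over 20 points in 6 factors. In EIF3K the 772-base transcript made up 81.5% of the TPM in the control and 37.0% in the tRF-3004b library, and the 694-base transcript 13.3% and 50.4%. In EIF6 an 893-base non-coding transcript held 34.9% and 0, and the 1069-base coding one 58.5% and 91.1%. In EEF1D the 962-base transcript held 51.2% and 5.58%, and the 1019-base one 17.8% and 72.3%. EIF2B4 rested on 63 counts in the tRF-3004b library. These transcripts share most of their sequence, and the shares are estimates from 1 library each.

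The site complementary to bases 2 to 8 of tRF-3004b, AGATTTG, was sought in 3′ UTRs of GENCODE release 29 on GRCh38. It was found in 8 of 58 measured factors (13.8%), against 14.8% of 12229 measured genes. The median 3′ UTR was 515 bases for the factors and 1023 for these genes, and the shares were not adjusted for length. The 8 were EEF1A1, EIF2B2, EIF3A, EIF3L, EIF4E, EIF4G3, EIF5 and GSPT1, the last with 2 sites. Examples are shown with the lowest ratio of the 8, the only site followed by an A, and a ratio near the highest, with the site in capitals and 8 bases on either side. The coordinates are those of the capitals.
EIF3L, chr22:37888629-37888635, plus strand: ttggagccAGATTTGtcgtctca
EIF4G3, chr1:20806838-20806844, minus strand: tttagtccAGATTTGagaaagtt
EIF5, chr14:103342331-103342337, plus strand: agggctttAGATTTGgacacaca
The site of EIF4G3 is the one followed by an A. The log2 ratios of EIF3L, EIF4G3 and EIF5 were -0.73, -0.45 and 0.83. The median of the 8 was -0.03 and that of factors without a site 0.15, against -0.26 and -0.08 over all genes. For 19 of the 63 factors, with EEF1A1, EIF3L and EIF4E among the 8, the GENCODE transcript differed by over 10% in length from the one quantified.

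Genes that act beside the factors were counted from lists chosen by function, to be read against 44.5% of all measured genes above 0 and 55.5% below, and intervals above 0 in 23.3% and below in 28.6%. Of eIF2 and its kinases 2 of 7 had a ratio above 0 and 5 below, with 2 intervals above and 4 below 0. The alpha and beta subunits EIF2S1 (0.73) and EIF2S2 (0.32) were highest, and the kinase EIF2AK4 (GCN2, -0.90) and the gamma subunit EIF2S3 (-0.66) lowest. Of 8 poly(A)-binding proteins and partners 3 were above and 5 below 0, with 1 interval above and 2 below, from PAIP2 (0.29) and PAIP2B (0.18) to LARP1 (-0.34), which binds 5′ TOP mRNAs, and PABPC1 (-0.92). Of 14 regulators of initiation 8 were above and 6 below, with 7 intervals above and 4 below, from the eIF4E kinase MKNK1 (0.97) and RPS6KB2 (0.88) to PDCD4 (-0.71), an inhibitor of eIF4A, and MIF4GD (-1.52 from 98 and 3 counts, -3.84 to 0.05).

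The same shares of all measured genes, 44.5% above 0 and 55.5% below, with 23.3% and 28.6% of intervals, apply to the other lists. Of 7 ribosome recycling and rescue genes 4 were above and 3 below 0, with 2 intervals on each side, from NEMF (0.73) and ABCE1 (0.48) to LTN1 (-0.40) and GTPBP2 (-0.59). Of 8 enzymes that make hypusine on eIF5A or diphthamide on eEF2, 5 were above and 3 below, with 4 intervals above and 2 below. The hypusine pair stood at opposite ends, with DHPS at -1.25 from 269 and 10 counts and DOHH at 2.07 from 10 and 4 counts (0.04 to 3.96), and the diphthamide genes ran from DPH2 (1.34) to DPH6 (-0.68). Of 10 mitochondrial translation factors 8 were above and 2 below, with 3 intervals above and 1 below, from MTIF3 (1.27) and MTRF1 (0.56) to MTRFR (-0.06) and GFM2 (-0.42).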

How the data were processed

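Quantification by the authors was with kallisto 0.46.1 on build GRCh38 (hg38), per the submitters' processing notes. Per the file headers, the authors deposited an estimated count, a TPM value and a transcript length and effective length in bases for each of 70866 RefSeq transcripts. Annotation release, trimming and strand setting were not found in the labels or headers, so overlapping and antisense genes cannot be told apart. Per the labels, libraries were made from poly-A RNA with a directional kit.

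Per gene, TPM was summed, and estimated counts were summed and then rounded to whole numbers. A RefSeq gene table (GRCh38.p14) named 70245 transcripts and GENCODE 29 named 293, and 328 unnamed transcripts (0.0723% and 0.0713% of counts) were left out. CPM used library sizes scaled by TMM factors (1.02 and 0.983; edgeR 4.0.16, R 4.3.3), without edgeR's test. Log2 ratios add 0.5 counts at a common library size. Intervals are exact conditional Clopper-Pearson 95% intervals. Intervals and the floor of 3 counts cover counting error only, because each group has 1 library. They take rounded estimated counts as independent molecules, which no molecular identifiers mark, so they may be too narrow even for that error. Counts and medians cover genes whose CPM averaged 1 or more. Length is weighted by TPM, and the 10 length classes hold genes whose CPM averaged 10 or more. Shared sequence was measured by 31-base words. Scripts (Python 3.11.15, pandas 2.3.3, scipy 1.17.1) were tested on simulated counts.

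The members, role groups and lists were chosen with earlier results of these data known. Full values are given for the 10 highest and 10 lowest factors among those averaging 10 CPM or more, the most abundant of each role, the central factors of each step, and the 2 highest and 2 lowest genes of each list. Alternatives were other size factors (DESeq2 1.42.0), filters and added counts, TPM with 1 added, coding transcripts only, family sums and a thinned control. Subtraction of the length class median was chosen after seeing the data.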

Additional observations from a re-analysis of the deposited data

How the results depend on the processing

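With gene TPM with 1 added in place of scaled counts, 3 factors were at least 2-fold higher, 7 were at least 2-fold lower and the median log2 ratio was -0.19, against 6, 2 and 0.15. The whole table moves with this scale, to a median of -0.38, with 680 genes at least 2-fold higher and 2434 lower in place of 1689 and 1969. On the TPM scale 5.2% of factors and 4.9% of all measured genes were at least 2-fold higher, and 12.1% and 17.7% lower. Under the other size factors, filters and added count, coding transcripts only and length class subtraction, 5 to 7 factors were at least 2-fold higher, 2 or 3 lower, and the median, here also with the control thinned, lay between 0.10 and 0.18. Under these settings 6.89% to 15.8% of all genes were at least 2-fold higher and 10.5% to 30.3% lower. The shares of factors were 8.62% to 12.1% and 3.45% to 5.17%. With the control thinned, 10.3% and 3.45% of the 58 factors were at least 2-fold higher and lower, as at full depth. The shares of all genes with the control thinned were 12.85% and 15.3%. The counts were not recomputed for family sums, and the family sum took EIF5AL1 from 1.76 to 0.87. For single factors, 10 changed direction with TPM (EEF1AKMT3, EEF1D, EIF2A, EIF3B, EIF3M, EIF4A1, EIF4A3, EIF4ENIF1, ETF1 and GSPT1). Unscaled totals turned EIF2A and put EIF1 at -1.01 and EIF3E at 0.995. Subtraction of the length class median turned EEF1D, EIF3G, EIF3H, EIF4A1 and EIF4EBP2. DESeq2 size factors put EEF2KMT at 1.02. No paired analysis was possible because each group has 1 library, and no library could be left out. The depth of the tRF-3004b library limits the factors with under 100 counts there, such as EEF2K, EIF4E3, EEF1AKMT1, EIF5AL1 and most eIF2B subunits.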

Other observations

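Some genes next to the factors were left out by the symbol rule and were looked at after the factors' values had been seen. EEF1E1 (AIMP3), a scaffold protein of the multi-tRNA synthetase complex, had 2067 control and 596 tRF-3004b counts, or 104 and 336 CPM, a log2 ratio of 1.69 (1.56 to 1.83) that exceeded that of EIF5B. METTL13, the methyltransferase of the eEF1A N-terminus, had 512 and 74 counts, or 25.7 and 41.7 CPM (0.70, 0.33 to 1.05). The divergent transcript EIF3J-DT, which starts beside EIF3J, had 266 and 14 counts, or 13.3 and 7.88 CPM (-0.76, -1.65 to 0.01), against 0.55 for EIF3J. EIF1B-AS1, beside EIF1B (-0.28), had 30 and 0 counts, and EIF5-DT, beside EIF5 (0.83), had 1 and 2 counts.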
